A study of Mus musculus with 6 samples.

Results

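The genes described here encode the receptor chains for the alarmins IL-33, IL-25, TSLP and IL-18, with 2 adaptor proteins that bind directly to them. They are the rows for Il1rl1, Il1rap, Il17rb, Il17ra, Crlf2, Il18r1, Il18rap, Myd88 and Traf3ip2, taken by gene symbol, and all 9 were found among the 23268 genes of the expression table. Group 2 innate lymphoid cells (ILC2s) are lymphocytes without antigen receptors that make type 2 cytokines. The cells came from colons of C57BL/6 mice that were 6 to 8 weeks old. In the DSS group the mice received 3% dextran sulfate sodium, an agent that injures the colonic epithelium, for 6 days, and in the control group they received water. Each group had 3 RNA-sequencing libraries, and the labels name no other treatment or allele in either group. Neither the sorting gate nor the number of mice behind a library is given in the labels, so the p-values reflect library-to-library spread, which may be technical.

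Alarmins are cytokines that epithelial and other tissue cells release or make on damage, and ILC2s are known to respond to them. IL-33 binds ST2, which recruits the accessory chain IL-1RAcP, and IL-18 binds an alpha chain that recruits its own accessory chain; both receptors pass the signal to the adaptor MyD88. IL-25 binds IL-17RB, which pairs with IL-17RA and recruits the adaptor Act1, whereas TSLP binds a chain that pairs with the IL-7 receptor alpha chain and signals through JAK kinases and STAT5.

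The libraries rested on 14993465, 19202418 and 10099848 counted reads in DSS replicates 1, 2 and 3, against 23380504, 17733926 and 12826645 in control replicates 1, 2 and 3. Replicates 3 of both groups stood apart from the other libraries on the first principal component, and DSS replicate 1 on the second. DSS replicate 1 also had the highest share of reads on ribosomal protein genes, 12.5% against 5.96% to 8.46% in the other libraries. All 13 genes of a list of ILC2 markers were above 0 in every library, Gata3, Rora and Klrg1 among them. They summed to 4670 to 7660 FPKM in DSS and 6600 to 7590 in control, which overlapped. Of these, Gata3, Rora, Il2ra, Icos, Il5, Il13 and Arg1 were lower in every DSS library than in every control library. That arrangement was seen for 9.6% of the 12187 genes tested. The other markers, Il7r, Klrg1, Thy1, Id2, Ptprc and Areg, overlapped between the groups. Gata3, the transcription factor that maintains ILC2s, had 287, 652 and 674 FPKM in DSS replicates 1, 2 and 3, against 885, 841 and 852 in control replicates 1, 2 and 3 (limma adjusted p = 0.497). DSS replicate 1 thus had the lowest Gata3 level, and without it the log2 change of Gata3 was −0.37 in place of −0.78. In bulk RNA, fewer cells of a type and less RNA per cell cannot be told apart. FPKM corrects a gene's fragment count for its length and for sequencing depth, so levels of different genes are compared here per length. Each log2 change is the DSS mean less the control mean of log2(FPKM + 1), with its standard error (SE); this scale shrinks the change of genes with low FPKM.

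All 9 genes were expressed at a mean of at least 1 FPKM and were tested, and none passed limma's adjusted p of 0.05, against 0.222% of the 12187 genes tested (27 genes). Il18rap, the accessory chain of the IL-18 receptor, had the lowest p of the 9, and its level was lower in every DSS library. It was the 1 gene of the 9 with an unadjusted p under 0.05, a level reached by 8.99% of all genes tested. With limma voom on recovered reads none of the 9 passed after adjustment, against 19 of the 12187 genes tested. With voom 2 of the 9 had an unadjusted p under 0.05, against 1179 of the 12187 genes. For 4 of the 9 (44.4%), the DSS and control libraries did not overlap, against 16% of all genes tested. Crlf2 and Il18r1 were higher in every DSS library than in every control library, an arrangement seen for 6.35% of all genes. Il18rap and Traf3ip2 were lower in every DSS library, an arrangement seen for 9.6%. With limma's library weights, which rest mostly on DSS replicate 2, 5 of the 9 passed (27% of all genes tested did), and with gene-by-gene weights, added after the data were seen, 2 passed (5.21% of all genes did). The median log2 change of the 9 was −0.096, and that of all genes tested was 0.031; without DSS replicate 1 these medians were 0.034 and 0.12.

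**Figure D1:**
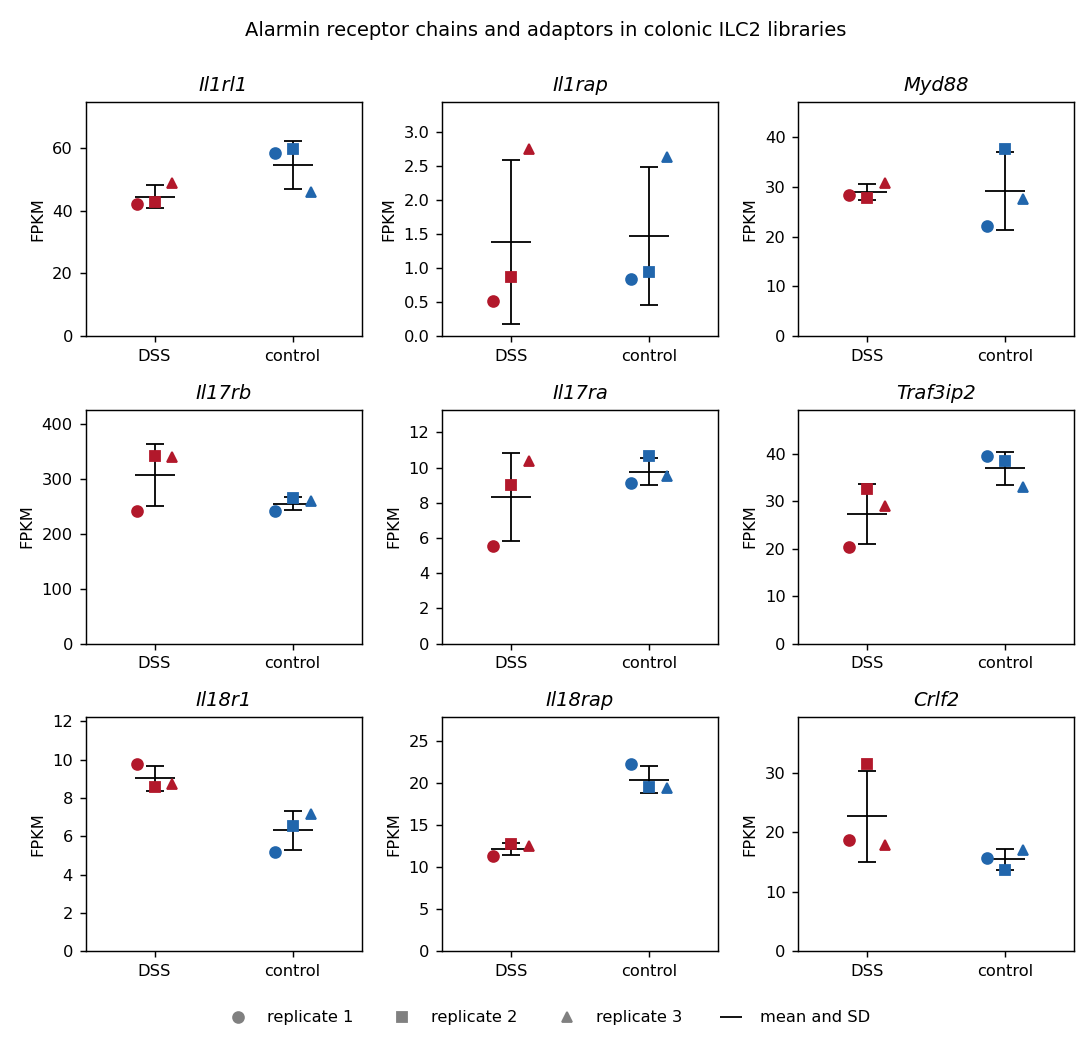
FPKM of the 9 receptor and adaptor genes on linear axes from 0, with 1 point per library, DSS left of control in each panel; bars are the mean and SD of 3 libraries and symbols mark replicates 1 to 3. The 3 DSS points of Crlf2 and Il18r1 lie above the control points, those of Il18rap and Traf3ip2 lie below them, and the groups overlap for the other 5 genes.

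The IL-25-binding chain Il17rb was the most abundant of the 9 in both groups, at 307 ± 56.5 FPKM in DSS and 255 ± 12.6 in control (SD, n = 3 each). Its mean level over the 6 libraries was at percentile 98.1 of the genes tested. Il1rl1 followed in both groups, and its library range was separate from that of the next gene. Below these, the order of mean FPKM in DSS ran Myd88, Traf3ip2, Crlf2, Il18rap, Il18r1, Il17ra and Il1rap. The ranges of Myd88 and Traf3ip2, of Traf3ip2 and Crlf2, and of Il18r1 and Il17ra overlapped in DSS. In control the order ran Traf3ip2, Myd88, Il18rap, Crlf2, Il17ra, Il18r1 and Il1rap, and here the ranges of Traf3ip2 and Myd88, and of Myd88 and Il18rap, overlapped. Il18rap therefore stood above Crlf2 in control and below it in DSS, with separate library ranges within each group. Il1rap was the lowest of the 9 in both groups, at percentile 12.5 of the genes tested. These orders rest on the gene lengths behind the deposited FPKM.

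Il1rl1, Il18r1 and Il18rap lie side by side on the plus strand of chromosome 1 (mm10). Il1rl1 occupies chr1:40429570-40465415, Il18r1 chr1:40465552-40500854 and Il18rap chr1:40515362-40551705. Only 136 bp separate the end of Il1rl1 from the start of Il18r1, and 14.5 kb separate Il18r1 from Il18rap. Although adjacent, the 3 genes had different values in DSS: Il18r1 was higher and Il18rap lower in all 3 DSS libraries, and the groups overlapped for Il1rl1. The bases before their start sites are shown because these neighbours are read from separate starts. They are 250 bases upstream of each start annotated by RefSeq on GRCm38.p6, 5′ to 3′ on the plus strand. Capitals mark the 6-base words AGATAA or TGATAA as well as AGATAG or TGATAG, searched on both strands, which are forms of the motif that GATA transcription factors are known to bind. None of these words overlaps another. The words were chosen with the sequences in view.
Il1rl1, first start, chr1:40429320-40429569: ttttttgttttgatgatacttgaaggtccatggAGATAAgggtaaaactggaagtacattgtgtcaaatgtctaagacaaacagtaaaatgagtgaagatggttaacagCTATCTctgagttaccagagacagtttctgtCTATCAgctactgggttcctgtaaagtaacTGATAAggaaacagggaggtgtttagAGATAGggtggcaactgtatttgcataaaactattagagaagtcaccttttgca
Il1rl1, second start, chr1:40439379-40439628: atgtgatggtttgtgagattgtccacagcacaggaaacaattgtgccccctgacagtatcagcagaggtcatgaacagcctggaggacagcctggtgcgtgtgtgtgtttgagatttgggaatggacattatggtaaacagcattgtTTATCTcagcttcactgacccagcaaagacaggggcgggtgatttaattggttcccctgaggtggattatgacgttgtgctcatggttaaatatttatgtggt
Il18r1, first start, chr1:40465302-40465551: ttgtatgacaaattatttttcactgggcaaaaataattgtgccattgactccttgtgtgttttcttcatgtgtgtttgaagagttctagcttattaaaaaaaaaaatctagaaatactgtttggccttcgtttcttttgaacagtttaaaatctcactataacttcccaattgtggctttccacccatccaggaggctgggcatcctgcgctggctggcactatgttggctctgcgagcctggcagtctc
Il18rap, chr1:40515112-40515361: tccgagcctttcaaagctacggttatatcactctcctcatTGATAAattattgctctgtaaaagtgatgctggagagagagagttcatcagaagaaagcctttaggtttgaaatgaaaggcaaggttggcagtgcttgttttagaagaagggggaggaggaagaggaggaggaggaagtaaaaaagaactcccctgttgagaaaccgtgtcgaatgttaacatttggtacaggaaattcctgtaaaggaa

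The first start of Il1rl1 had 5 of these words in 250 bases, and its second start, 10.1 kb downstream, had 1. Il18rap had 1 word and the 3 annotated starts of Il18r1 had 0. Among the 32851 RefSeq promoters of the same length, 26.5% had at least 1 word and 14 promoters (0.0426%) had at least 5. Because the words were chosen with these sequences in view, neither share is a test. The promoters were also not matched for base composition. Promoters were found for 7 of the 9 genes, and those of Il17rb, Il1rap, Crlf2 and Myd88 had 0. A match describes letters and is not evidence of binding.

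Of the genes on either side, Il1r2, the decoy receptor for IL-1, had 7.99 ± 2.93 FPKM in DSS and 7.20 ± 0.504 in control. Il1r1, the signalling receptor for IL-1, had 1.89 ± 0.791 in DSS and 2.67 ± 1.66 in control. Map4k4, a kinase gene at the far end, had 13.4 ± 3.61 in DSS and 17.8 ± 1.42 in control. None of these 3 passed, with limma adjusted p from 0.679 upward. The other 5 neighbours, among them the IL-36 receptor gene Il1rl2, which lies between Il1r1 and Il1rl1, had a mean under 1 FPKM and were not tested; their highest library value was 1.41 FPKM.

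**Figure D2:**
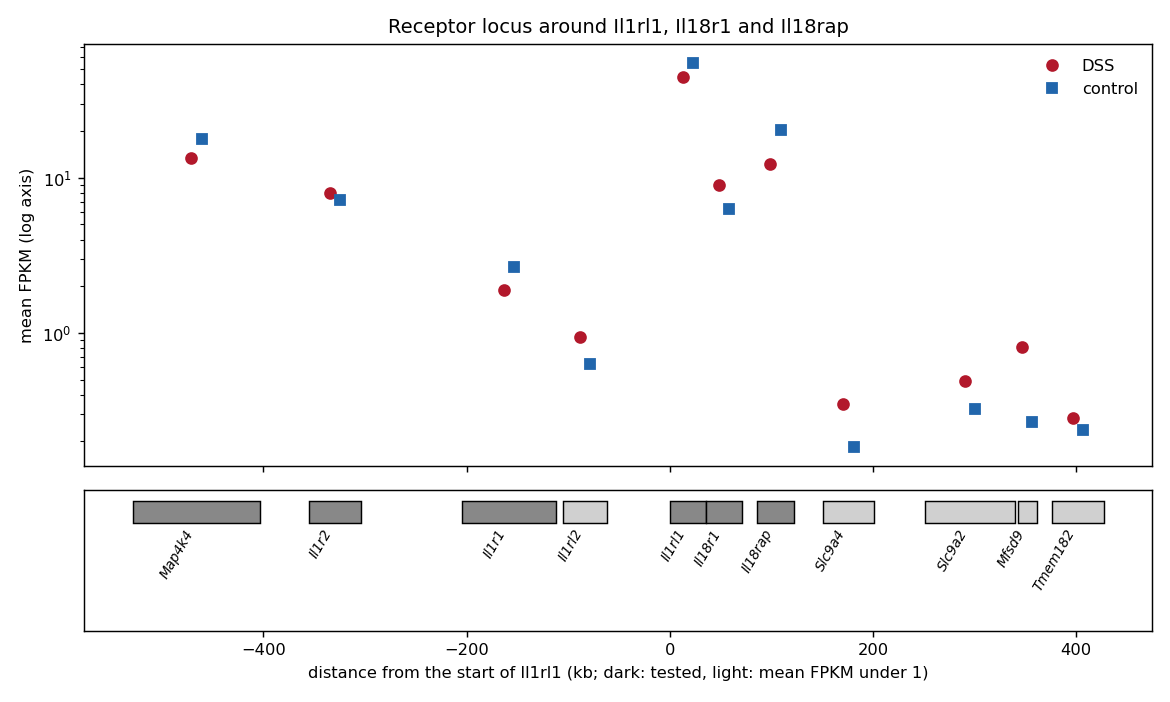
Genes of the chromosome 1 receptor cluster by distance from the start of Il1rl1 in kb, with each gene's mean FPKM in DSS and in control on a log axis. Il1rl1, Il18r1 and Il18rap are adjacent; the DSS mean is above the control mean for Il18r1 and below it for Il1rl1 and Il18rap.

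Il1rl1 encodes ST2, the chain that binds IL-33, in a membrane form and, from alternative transcripts, a soluble decoy form; gene-level values do not separate them. Il1rl1 had 42.1, 42.8 and 48.8 FPKM in DSS replicates 1, 2 and 3, against 58.6, 59.9 and 46.0 in control replicates 1, 2 and 3. DSS replicates 1 and 2 were below all controls, but DSS replicate 3 was above control replicate 3, so the groups overlapped. The means were 44.6 ± 3.65 FPKM in DSS and 54.8 ± 7.68 in control (SD, n = 3 each), a log2 change of −0.29 ± 0.20 SE. The 95% confidence interval of the log2 change ran from −0.73 to 0.16 (limma adjusted p = 0.756). Between 2612 and 7263 reads stood behind each value.

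Il1rap encodes IL-1RAcP, the accessory chain that IL-33 and IL-1 receptors share. Il1rap had 0.516, 0.864 and 2.76 FPKM in DSS replicates 1, 2 and 3, against 0.842, 0.936 and 2.64 in control replicates 1, 2 and 3. The replicates 3 of both groups were about equally high and the other 4 libraries low, so the spread within each group was far larger than the difference between them. The same libraries had the highest mean FPKM over 1103 olfactory receptor genes, 0.962 in DSS replicate 3 and 0.583 in control replicate 3, against 0.0342 to 0.182 in the other 4; the part of this in the Il1rap values was not tested. Il1rap was under 1 FPKM in those 4 libraries and met the expression filter through replicates 3. Its log2 change was −0.10 ± 0.52 SE (limma adjusted p = 0.977) on 35 to 153 reads per library. Leaving out 1 library at a time moved the log2 change between −0.48 and 0.22, so no direction is given. Il1rap (chr16:26581704-26730117, plus strand) shares 552 bp of exon with the antisense gene Gm20319, and these libraries do not mark the strand.

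IL-25 is sensed through Il17rb, the chain that binds it, and Il17ra, the chain shared with the IL-17 cytokines. Il17rb had 242, 341 and 339 FPKM in DSS replicates 1, 2 and 3, against 241, 265 and 259 in control replicates 1, 2 and 3. DSS replicates 2 and 3 were above all controls and DSS replicate 1 was among them. The log2 change of Il17rb was 0.25 ± 0.21 SE (95% interval −0.23 to 0.73, limma adjusted p = 0.812). Without DSS replicate 1 it was 0.41 with a limma adjusted p of 0.0939. Il17rb lies at chr14:29996135-30008896 on the minus strand, shares 141 bp of exon with Actr8 on the opposite strand, and rested on 8570 to 16864 reads per library. Il17ra (chr6:120463247-120487559, plus strand) had 5.56, 9.02 and 10.4 FPKM in DSS replicates 1, 2 and 3, against 9.14, 10.6 and 9.53 in control replicates 1, 2 and 3. DSS replicate 1 was the low library, and the groups overlapped. The log2 change of Il17ra was −0.24 ± 0.25 SE (limma adjusted p = 0.852), and −0.0085 without DSS replicate 1.

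Crlf2 encodes the chain that binds TSLP. It lies at chr5:109554709-109558993 on the minus strand. Crlf2 had 18.7, 31.4 and 17.8 FPKM in DSS replicates 1, 2 and 3, against 15.7, 13.6 and 17.0 in control replicates 1, 2 and 3. All DSS libraries were above all control libraries, DSS replicate 2 far above and the other 2 by little. The means were 22.6 ± 7.63 FPKM in DSS and 15.4 ± 1.70 in control (SD, n = 3 each), a log2 change of 0.48 ± 0.25 SE (95% interval −0.08 to 1.05, limma adjusted p = 0.644). Without DSS replicate 2 the log2 change was 0.23. Il7r, the partner chain that TSLP and IL-7 receptors share, had 155 ± 15.7 FPKM in DSS and 148 ± 11.1 in control, a log2 change of 0.07 ± 0.19 SE (limma adjusted p = 0.952).

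The chains of the IL-18 receptor are the binding chain Il18r1 and the accessory chain Il18rap, and neither passed the test. Il18r1, which binds IL-18, had 9.77, 8.55 and 8.74 FPKM in DSS replicates 1, 2 and 3, against 5.205, 6.54 and 7.18 in control replicates 1, 2 and 3. Every DSS library was above every control library. The means were 9.02 ± 0.654 FPKM in DSS and 6.31 ± 1.01 in control (SD, n = 3 each), 1.43-fold higher in DSS. The log2 change was 0.46 ± 0.22 SE, with a 95% interval of −0.03 to 0.95 (limma adjusted p = 0.587) and 367 to 683 reads per library. Il18r1 thus did not pass, although its groups were separate.

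Il18rap, which encodes the accessory chain needed for IL-18 signalling, had 11.3, 12.7 and 12.5 FPKM in DSS replicates 1, 2 and 3, against 22.2, 19.5 and 19.4 in control replicates 1, 2 and 3. The libraries within each group lay close together and the groups were far apart. The means were 12.2 ± 0.726 FPKM in DSS and 20.4 ± 1.604 in control (SD, n = 3 each), 1.68-fold lower in DSS. The log2 change was −0.70 ± 0.19 SE, with a 95% interval of −1.13 to −0.26, a limma p of 0.00516 and an adjusted p of 0.225. Over 20 other settings the change stayed between −0.76 and −0.56, and the limma adjusted p ranged from 0.000618 to 0.907. Without DSS replicate 1 its adjusted p was 0.0472, and it was then the 1 gene of the 9 that passed, against 3.39% of all genes tested. Between 615 and 2542 reads stood behind each value of Il18rap.

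**Figure D3:**
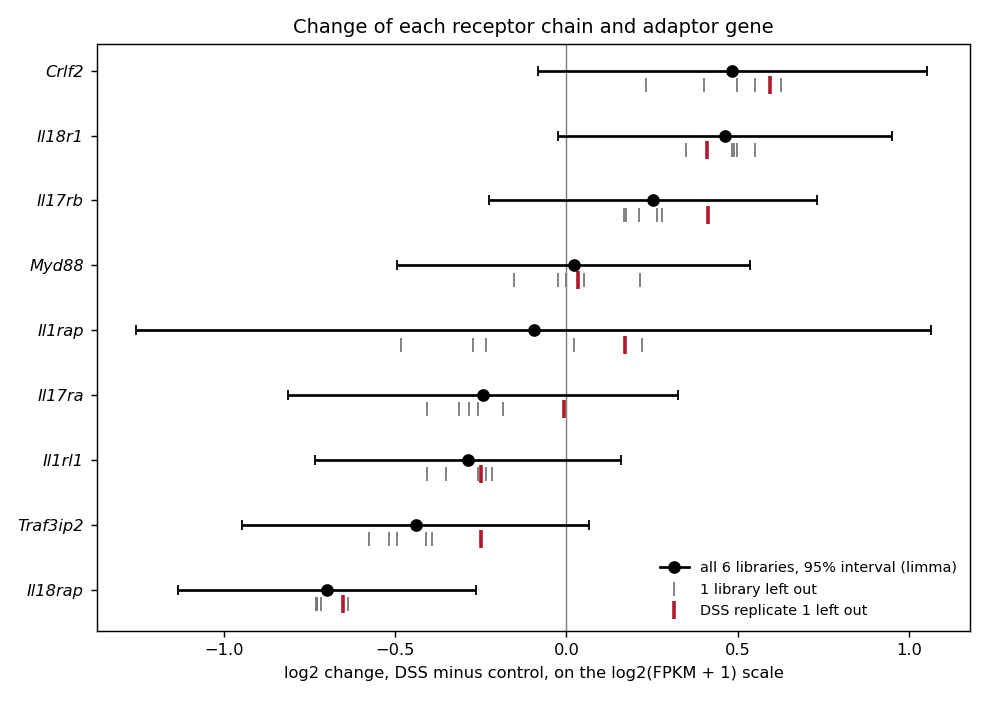
Log2 change (DSS minus control) of each of the 9 genes, as a point with limma's 95% confidence interval as a bar; grey ticks give the value with 1 library left out and red ticks that without DSS replicate 1. The interval of Il18rap, from −1.13 to −0.26, is the 1 interval that leaves out 0.

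A ratio of 2 genes within a library does not depend on how that library was scaled, so 7 chain ratios were compared between the groups by an exact two-sided permutation test. With 3 libraries against 3 its smallest p is 0.1, so no ratio could reach 0.05. The ratio of Il18rap to Il18r1 was 1.16, 1.48 and 1.43 in DSS replicates 1, 2 and 3, against 4.27, 2.98 and 2.71 in control replicates 1, 2 and 3. By deposited FPKM, RNA of the accessory chain was thus above that of the binding chain in all 6 libraries, by less in DSS. The lengths recovered behind the FPKM were 4889 bases for Il18rap and 4158 for Il18r1, against annotated exon lengths of 6752 and 4817. The order within a library depends on the lengths used, whereas the log2 difference between the groups does not. The ratio averaged 1.36 ± 0.172 in DSS and 3.32 ± 0.836 in control (SD, n = 3 each), a log2 difference of −1.27 (exact permutation p = 0.1, 0.175 after adjustment over the 7 ratios).

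The ratio of Il17rb to Il1rl1, the binding chains for IL-25 and IL-33, was 5.75, 7.96 and 6.95 in DSS replicates 1, 2 and 3, against 4.11, 4.42 and 5.64 in control replicates 1, 2 and 3. Every DSS library had the higher ratio, the nearest pair being DSS replicate 1 and control replicate 3. The ratio of Il17rb to its partner Il17ra was 43.6, 37.8 and 32.6 in DSS replicates 1, 2 and 3, against 26.4, 24.9 and 27.2 in control replicates 1, 2 and 3. Here too the groups did not overlap, so that the binding chain stood further above its partner in each DSS library. The ratio of Traf3ip2 to Il17rb was 0.0843, 0.0958 and 0.0857 in DSS replicates 1, 2 and 3, against 0.164, 0.145 and 0.127 in control replicates 1, 2 and 3. It was lower in every DSS library. Each of these 3 ratios had an exact permutation p of 0.1 (0.175 after adjustment), with log2 differences of 0.54, 0.53 and −0.71, and they share Il17rb. The ratios of Crlf2 to Il7r, Il1rl1 to Il1rap and Myd88 to Il1rap overlapped between the groups, with exact permutation p of 0.3, 1 and 0.7.

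**Figure D4:**
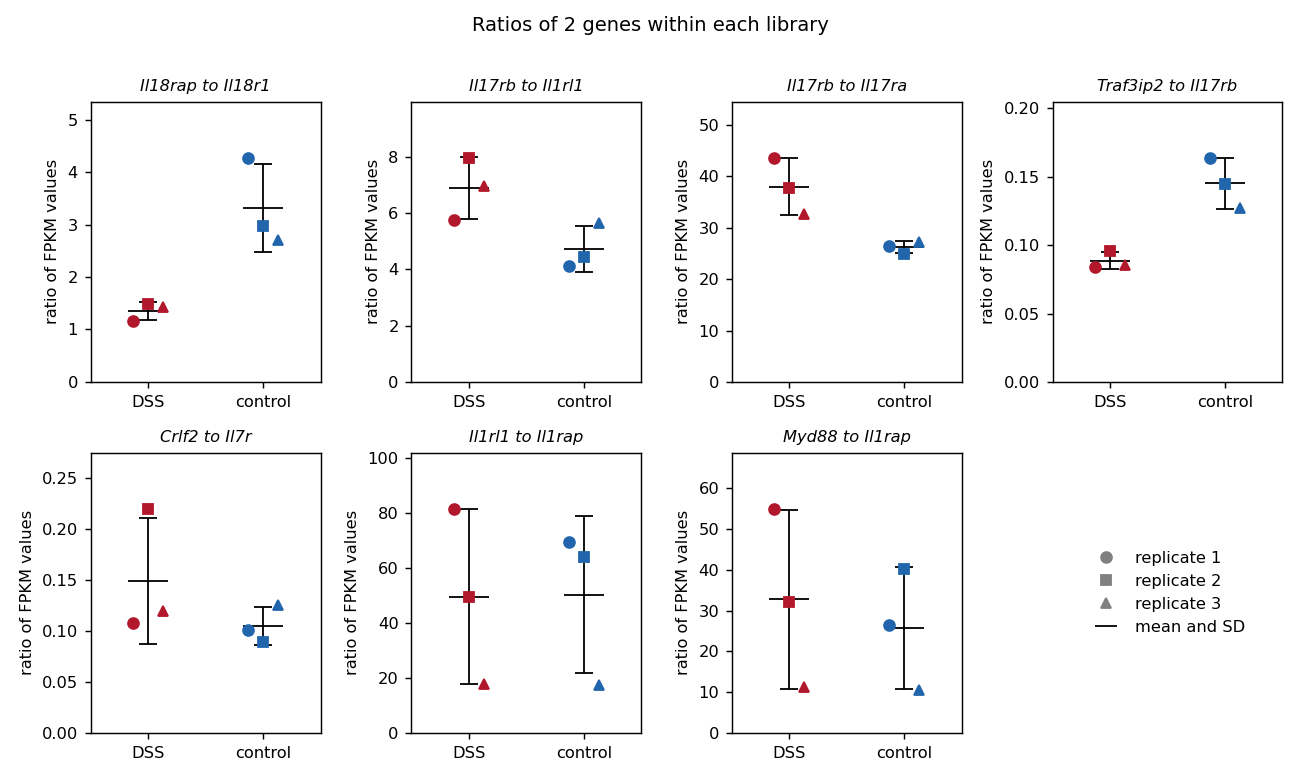
Ratios of FPKM between 2 genes within each library, on linear axes from 0, with DSS left of control in each of the 7 panels; bars are the mean and SD of 3 libraries. The ratio of Il18rap to Il18r1 is 1.16 to 1.48 in DSS and 2.71 to 4.27 in control; 4 of the 7 ratios do not overlap between the groups.

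Neither of the 2 adaptors passed the test. Myd88, the adaptor of the IL-33 and IL-18 receptors, had 28.4, 27.7 and 30.9 FPKM in DSS replicates 1, 2 and 3, against 22.2, 37.7 and 27.7 in control replicates 1, 2 and 3. The DSS libraries lay within the range of the controls. The means were 29.0 ± 1.66 FPKM in DSS and 29.2 ± 7.86 in control, with a log2 change of 0.02 ± 0.23 SE (95% interval −0.49 to 0.54, limma adjusted p = 0.989) whose sign turned with equal-total and median-of-ratios scaling. Myd88 (chr9:119335934-119341411, minus strand) shares 290 bp of exon with Acaa1a on the opposite strand.

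Traf3ip2, which encodes Act1, the adaptor that IL-17RB and IL-17RA recruit, had 20.4, 32.7 and 29.0 FPKM in DSS replicates 1, 2 and 3, against 39.5, 38.4 and 32.9 in control replicates 1, 2 and 3. All DSS libraries were below all control libraries, with DSS replicate 2 just under control replicate 3. The means were 27.4 ± 6.29 FPKM in DSS and 36.9 ± 3.51 in control (SD, n = 3 each), a log2 change of −0.44 ± 0.23 SE (95% interval −0.95 to 0.07, limma adjusted p = 0.639). Without DSS replicate 1 the log2 change was −0.25. Traf3ip2 (chr10:39612934-39655307, plus strand) shares 293 bp of exon with E130307A14Rik on the opposite strand.

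Other genes were taken from 7 lists of 56 genes, 6 lists of these pathways and 1 of the chromosome 1 neighbours, and 48 were tested, of which 47 are in the pathway lists and the other is the neighbour Map4k4. None passed limma's adjusted p of 0.05, and 7 had an unadjusted p under 0.05 (8.99% of all genes tested did). With limma voom none passed, against 19 of the 12187 genes tested. With voom 9 had an unadjusted p under 0.05, against 1179 of the 12187 genes. Of the 48, 32 had a lower and 16 a higher value in DSS, against 46.9% lower and 53.1% higher among all genes tested. Their median log2 change was −0.23. With DSS replicate 1 left out, 25 of the 48 (52.1%) had a lower and 23 a higher value, against 38.8% lower among all genes tested, and the medians were −0.012 for the 48 and 0.12 for all genes. For 9 of the 48 (18.8%) the groups did not overlap, 2 above and 7 below, against 16% of all genes.

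Among the 15 tested genes of the MyD88 complex and its TRAF ubiquitin ligases, 12 had a lower value in DSS (46.9% of all genes did) and 4 lay below control in all libraries (9.6% of all genes did). The lower values numbered 9 of 15 without DSS replicate 1, against 38.8% of all genes in that setting. Irak3, which encodes IRAK-M, a kinase-like protein known to restrain MyD88 signalling, had the lowest p of the 48. It had 7.34, 4.30 and 7.19 FPKM in DSS replicates 1, 2 and 3, against 16.2, 16.1 and 19.9 in control replicates 1, 2 and 3, with wide separation. Its means were 6.28 ± 1.71 FPKM in DSS and 17.4 ± 2.18 in control, a log2 change of −1.36 ± 0.25 SE (limma adjusted p = 0.0912). It was the 1 gene of the 48 with an adjusted p under 0.1, a level reached by 0.435% of all genes tested. The kinase gene Irak2 had 52.4 ± 17.2 FPKM in DSS and 81.3 ± 5.39 in control, the ubiquitin ligase gene Peli1 had 35.5 ± 6.44 in DSS and 55.7 ± 4.73 in control, and Traf2 had 19.9 ± 8.0 in DSS and 29.7 ± 1.49 in control. These 3 had limma adjusted p from 0.334 to 0.587. Without DSS replicate 1 the log2 change of Irak2 was −0.39 in place of −0.68, and that of Traf2 −0.27 in place of −0.64.

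Among the 9 tested genes of the NF-kB and p38 branches, 6 had a lower value in DSS and 2 lay below control in all libraries, against 46.9% and 9.6% of all genes. Leaving out DSS replicate 1 left 4 of the 9 with a lower value, against 38.8% of all genes in that setting. Nfkb1, which encodes the NF-kB subunit p105/p50, had 106, 147 and 174 FPKM in DSS replicates 1, 2 and 3, against 238, 245 and 225 in control replicates 1, 2 and 3 (limma adjusted p = 0.288). Map2k3, a kinase that activates p38, had 40.9, 111 and 104 FPKM in DSS replicates 1, 2 and 3, against 172, 182 and 161 in control replicates 1, 2 and 3 (limma adjusted p = 0.304). DSS replicate 1 was the lowest library for both genes, and without it the log2 change of Map2k3 was −0.67 in place of −1.12. Among the 5 genes of the TSLP receptor's JAK-STAT arm, Jak2, the kinase that associates with the TSLP-binding chain, lay below control in all libraries, at 62.9 ± 2.42 FPKM in DSS and 103 ± 5.38 in control (log2 change −0.70 ± 0.18 SE, limma adjusted p = 0.196). Stat5a, Stat5b and Jak1 overlapped between the groups, and without DSS replicate 1 the log2 change of Stat5b was −0.084 in place of −0.52. Without DSS replicate 1, Irak3, Jak2, Map2k3 and Nfkb1 passed, 4 of the 48, against 3.39% of all genes tested.

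Of 11 genes that restrain these pathways, 8 had a lower value in DSS (46.9% of all genes did), and Il18bp and Nfkbia lay above control in all libraries (6.35% of all genes did). Once DSS replicate 1 was left out, 6 of the 11 had a lower value, against 38.8% of all genes in that setting. Il18bp encodes a soluble protein that binds and neutralizes IL-18. It had 12.3, 12.2 and 11.6 FPKM in DSS replicates 1, 2 and 3, against 5.73, 3.54 and 7.36 in control replicates 1, 2 and 3. The means were 12.02 ± 0.406 FPKM in DSS and 5.54 ± 1.92 in control, a log2 change of 1.04 ± 0.26 SE (limma adjusted p = 0.180). Nfkbia, the NF-kB inhibitor, had 10819 ± 2409 FPKM in DSS and 7738 ± 434 in control (limma adjusted p = 0.704), and without DSS replicate 1 its log2 change was 0.29 in place of 0.46. Zc3h12a, an RNase that degrades cytokine transcripts, had 49.99 ± 22.9 FPKM in DSS and 76.0 ± 6.94 in control, with overlap; without DSS replicate 1 its log2 change was −0.30 in place of −0.71. Of the related receptor chains, 5 of 7 were tested and all overlapped between the groups. Sigirr, an inhibitory member of the IL-1 receptor family, was at 53.6 ± 11.4 FPKM in DSS and 42.3 ± 3.14 in control (limma adjusted p = 0.751), with a log2 change of 0.31, or 0.48 without DSS replicate 1.

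**Figure D5:**
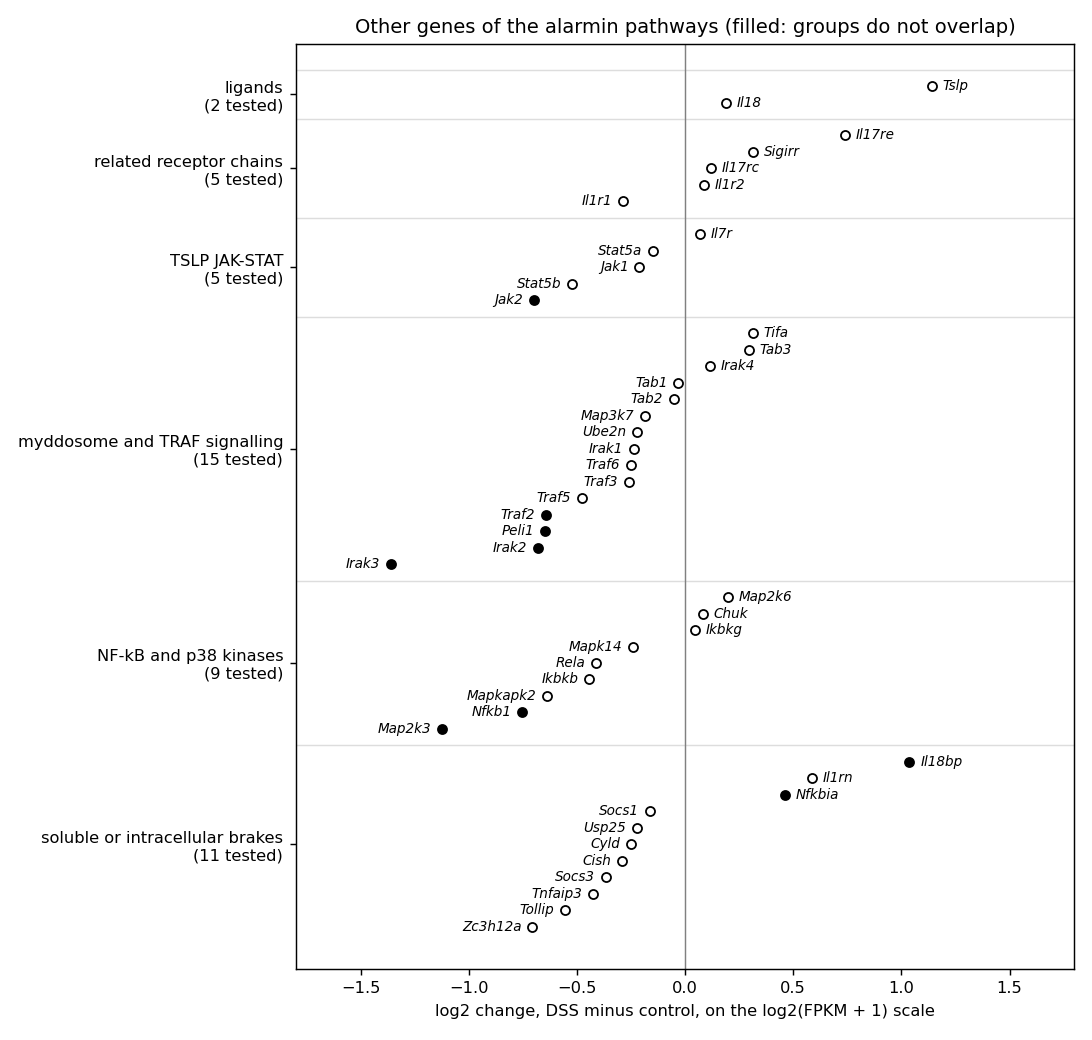
Log2 change (DSS minus control) of the tested genes in 6 of the pathway lists, computed on log2(FPKM + 1); filled points mark genes whose DSS and control libraries do not overlap. None passed an adjusted p of 0.05; Irak3, at −1.36, is farthest to the left, and Tslp, at 1.14, farthest to the right with an open point.

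The ligand genes had low values in these cells. Tslp had 3.82, 0.781 and 4.28 FPKM in DSS replicates 1, 2 and 3, against 0, 0.448 and 1.93 in control replicates 1, 2 and 3, on 0 to 65 reads per library (limma adjusted p = 0.632). DSS replicate 2 was below control replicate 3, so the groups overlapped. Il18 ranged from 0.151 to 1.79 FPKM over the 6 libraries, with overlap (limma adjusted p = 0.955). Il33 and Il25 had means under 1 FPKM and were not tested; Il33 rested on 7 to 30 reads per library and Il25 on 0 to 14.

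Genes with the pattern most like a receptor's were ranked by the root mean square (RMS) difference of centred log2(FPKM + 1) values over the 6 libraries. For Il1rl1 they were Aebp2, Kdm2b and Dpysl2, with RMS differences of 0.054 to 0.0636 among 6230 genes compared. For Il17rb they were Rai1, Arfrp1 and Arrdc1 (0.0654 to 0.0658, 6198 genes). For Il18r1 they were Rab19, Spr and Emc8 (0.0513 to 0.0703, 6003 genes). For Crlf2 they were Tradd, Cd74 and Dedd2 (0.115 to 0.149, 5445 genes). This measure grows with a gene's own spread, which was widest for Crlf2, so it does not rank the 4 receptors against each other.

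Other cell types known to carry these receptors were read from marker lists as summed FPKM. Mast cells carry ST2: all 8 markers were in the table, the sum was 21.2 to 44.8 in DSS and 58.3 to 67.4 in control, most of it Kit, at 20.2 to 36.5 in DSS and 57.6 to 63.3 in control. Tpsb2, a mast cell tryptase, was at 0 in all control libraries, and no other mast cell marker exceeded 2.78 FPKM. Natural killer cells and ILC1s carry the IL-18 receptor: the sum of their 6 markers was 63.7 to 80 in DSS and 59.9 to 101 in control, which overlapped. Gzmb made up most of it, at 37.4 to 62.0 in DSS and 43.3 to 72.2 in control. Tbx21, Eomes, Ncr1, Klrb1c and Prf1 did not exceed 10.9 FPKM, and each overlapped between the groups. For ILC3s, the sum of 5 markers was 75 to 329 in DSS and 233 to 335 in control. Of 7 T cell markers, 6 were in the table, with a sum of 21.7 to 62.6 in DSS and 23.2 to 32 in control, highest in DSS replicate 1. The 7 dendritic cell markers, a type that carries the TSLP receptor, summed to 6.28 to 19.9 in DSS and 13.8 to 20.9 in control. Zbtb46 and Xcr1 were lower in every DSS library. Zbtb46 was at 1.48 to 5.32 in DSS and 8.36 to 9.82 in control, and Xcr1 at 0.989 to 2.91 and 5.23 to 8.13. Flt3 was higher in every DSS library, at 0.962 to 2.18 in DSS and 0.065 to 0.651 in control. Itgax, Clec9a, Ccl22 and Cd209a overlapped. The 4 basophil markers summed to 4.08 to 11.8 in DSS and 0.331 to 5.47 in control, and the 4 eosinophil markers to 0.897 to 3.56 in DSS and 0.254 to 1.42 in control. The 5 B cell markers summed to 14.4 to 26 in DSS and 10.7 to 17.2 in control, and the 3 regulatory T cell markers to 5.82 to 11.7 in DSS and 7.1 to 10.3 in control. The 8 neutrophil markers summed to 67.2 to 106 in DSS and 2.87 to 7.61 in control, which did not overlap. S100a8, S100a9 and Retnlg made up most of this sum, at 64.7 to 92.5 in DSS and 1.43 to 2.96 in control, while the other 5, among them Ly6g, Cxcr2, Mpo and Elane, summed to 0.828 to 13.3 in DSS and 1.39 to 5.45 in control and overlapped. The 8 epithelial markers summed to 24.8 to 29.6 in DSS and 11.3 to 19.2 in control, again without overlap. Epcam gave 14.2 to 19.3 of it in DSS and 8.07 to 10.5 in control, and was higher in every DSS library. The sum of the other 7 overlapped, at 7.76 to 15.4 in DSS and 2 to 10.6 in control. Krt8 and Krt18 were also higher in every DSS library. Krt8 was at 1.87 to 4.19 in DSS and 0.0437 to 1.35 in control, and Krt18 at 1.11 to 3.23 and 0.506 to 1.03. Krt20, Muc2, Vil1, Cdh1 and Slc26a3 each overlapped. The 7 macrophage markers summed to 14 to 27.2 in DSS and 9.29 to 13.7 in control, also without overlap but by a narrow margin. Of them C1qb did not overlap, at 1.55 to 4.11 in DSS and 0.415 to 0.786 in control. Adgre1, Csf1r, Cd68, Lyz2, C1qa and Mrc1 each overlapped between the groups. The part of any of these cells in the receptor values was not tested.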

How the data were processed

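RNA was extracted with TRIzol, and full-length cDNA and unstranded libraries were made with SMART-Seq HT and Nextera XT kits, per the labels' protocols. Per the submitters' processing notes, cutadapt 1.9, HISAT2 2.2.1 and mm10 were used, with no settings listed. Counting tool and annotation: not given in the sources used here. In 1 table the authors deposited FPKM values for 23268 genes in 6 libraries. Each library was grouped by its title.

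Whole reads (or fragments; which of these cannot be told from the values) were recovered from the steps in each library's FPKM with exon lengths of GENCODE M21. All 22701 genes above 0 came out whole (100.0%, tolerance 0.001), 5221 (23.0%) by their annotated length and the others by their smallest step, which can make any value whole. Depth was 10099848 to 23380504 counted reads per library, so genes near 1 FPKM are the least certain, most so in DSS replicate 3.

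Groups were compared with limma 3.58.1 in R 4.3.3 (lmFit, trended eBayes, both directions) on log2(FPKM + 1). It took the 12187 genes whose FPKM averaged at least 1 across all libraries, and p-values were adjusted over all of them by Benjamini-Hochberg. The fit was also run on simulated reads with the same spread setting for every gene and no outlying library. That run does not cover the differences between libraries seen here. Ratios used exact permutation tests. The members and lists were chosen with earlier results of these data known. Named genes were all 9 members, up to 4 of each pathway list with the smallest p, the ligands, Il7r, Gata3, Ptprc, and the 3 nearest patterns of 4 receptors among genes with mean FPKM of at least 5. Not all are described in the text. Same-numbered libraries deviated together (correlations 0.189, 0.262 and 0.545 for replicates 1, 2 and 3), each above a limit of 0.1. So did control replicate 1 with DSS replicate 2 (0.345) and control replicate 2 with DSS replicate 1 (0.101). These values therefore do not settle whether the numbers pair the samples, and the labels give no pairing. Pairing by number was used only in the replicate block. Alternatives were other pseudocounts, filters, scalings, trend and robust settings, library weights, the replicate block, voom on recovered reads, and leaving out libraries. Coordinates are 1-based from GENCODE M21; promoters are from RefSeq. Proteins, and the promoters of Il17ra and Traf3ip2, were not used here. Tables were handled in Python 3.11.15 with pandas 2.3.3 and plotted with matplotlib 3.10.9.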

Additional observations from a re-analysis of the deposited data

How the results depend on the processing

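None of the 9 receptor and adaptor genes passed limma's test in the main setting, and 1 had an unadjusted p under 0.05; with library weights 5 passed (Crlf2, Il17rb, Il18r1, Il18rap and Il1rl1, against 27% of all genes) and with gene-by-gene weights, an alternative added after seeing the data, 2 (Crlf2 and Il18rap, against 5.21%). Leaving out 1 library gave 0 to 1, the 1 without DSS replicate 1, where 3.39% of all genes passed. The weights fall mostly on DSS replicate 2 (17.8, against 0.147 and 0.257 for DSS replicates 1 and 3), and their estimate stopped before converging. Over all genes, 27 passed; the count was 14 with equal totals, 13 with median-of-ratios, 4 without the trend, 3286 with library weights, 635 with gene-by-gene weights, 53 at an adjusted p under 0.1, and 4 to 413 with 1 library left out, the 413 without DSS replicate 1. With both replicates 3 left out it was 0, with 1208 at an unadjusted p under 0.05, and no other tool was run on those 4 libraries. Of the 48 list genes, 12 passed with library weights (Map4k4, a chromosome 1 neighbour, among them), against 27% of all genes. At an adjusted p under 0.1, 1 passed (Irak3), against 0.435% of all genes. With 1 library left out 0 to 4 passed, the 4 without DSS replicate 1, where 3.39% of all genes passed. With the replicate block, which took same-numbered libraries as pairs, 22 genes passed, 0 members and 0 pathway genes, so it changed no call named here. The log2 change turned its sign for 8 genes, none of which passed. Myd88 was at −0.040 with equal totals, −0.0046 with median-of-ratios, −0.12 with library weights, −0.045 without both replicates 3, and −0.15 to 0.22 with 1 library left out. With library weights Il1r1 was 0.12, Il1r2 −0.29, Stat5a 0.10, Il7r −0.068 and Ptprc 0.026. With quantile scaling Il18 was −0.12 and Ptprc 0.090. Il1r2 was −0.21 without both replicates 3 and −0.014 with voom. With 1 library left out, Il1rap ranged from −0.48 to 0.22, Il18 from −0.11 to 0.61, Il1r1 from −0.60 to 0.053, Il1r2 from −0.16 to 0.27, Stat5a from −0.39 to 0.23, Il7r from −0.014 to 0.12 and Ptprc from −0.027 to 0.029. The log2 difference of the ratio of Il1rl1 to Il1rap ranged from −0.69 to 0.58, and that of Myd88 to Il1rap from −0.27 to 0.91. The cause of these shifts was not tested. Of 695 values under other settings for 35 tested genes (the members, list genes, Il7r, Gata3 and Ptprc, without the nearest-pattern genes), 645 kept their direction and side of the threshold, 22 passed where the main value did not, and 28 reversed. The filters, no trend, robust, replicate block and adjusted p under 0.1 settings repeat the main log2 change. Their direction could not reverse, so the 645 overstates how far direction was tried.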
